A study of Drosophila melanogaster with 8 samples.

Results

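Transcription factors that fix the identity of neurons were examined by RNA sequencing of Dh44 neurons picked from Drosophila melanogaster brains. The list held 54 genes chosen by name, among them homeobox, POU, LIM homeobox, Pax6, Sox, nuclear receptor and zinc finger factors, and 53 of them had a row among the 11773 genes of the files; scro was not analysed here. All 8 libraries, numbered 1 to 8 after their titles, form a single group with the genotype DH44-GAL4;UAS-mCD8gfp. The flies were 5 days old and kept on normal food, and the cells were picked from dissected brains by the fluorescence of a membrane-bound green fluorescent protein that a Dh44 driver line switches on. The series text describes single picked cells and a label describes pooling, so the number of cells behind a library is not settled, and no animal or sex is named. The design has no second cell type, diet or genotype, and the values are therefore given per library, with the median and range, and without tests.

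Homeodomain proteins bind DNA through a short helical domain, and the identity of a neuron is commonly fixed by a combination of such factors that stays on in the mature cell. In flies, these combinations are set up in the embryo and larva along the axes of the nervous system and by the age of the dividing neuroblast. Dh44 neurons lie in the pars intercerebralis, a dorsal midline region of the brain that holds neurosecretory cells, among them the insulin-producing cells. Optix, tll and eya are known in the fly head for roles in the early brain or eye, and ey and dac are known to act together on the insulin-like peptide gene Ilp5 in insulin-producing cells.

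Levels are FPKM, a fragment count scaled by exon length and by the mapped fragments of the library, as the authors deposited them. A factor is called detected where it reached 1 FPKM. Read depth is unknown, and the ubiquitous basal factor gene Tbp was listed at 0 in 5 libraries, so a 0 is not read as absence. The libraries held between 2518 (library 1) and 5256 (library 4) detected genes. Library 8 had 3798 and library 3 had 4094. Dh44 itself ranged from 26309 to 99818 FPKM. All 12 neuronal genes passed 1 FPKM in 4 or more libraries, but their summed level was lowest in library 8 at 593 FPKM and next lowest in library 1 at 1139 FPKM, against a highest value of 2452 FPKM in library 4. The summed fat body markers were highest in the same libraries: they came to 68638 FPKM in library 8, to 56982 FPKM in library 1 and to 14379 FPKM in library 4. Most of each sum was Yp1, Yp2 and Yp3, the yolk protein genes. Other markers of the list followed it only in part. Ilp6 was highest in library 8 (160 FPKM) but listed at 0 in library 1. Lsp1beta was highest in library 1 (186 FPKM) but lower in library 8 (83.9 FPKM) than in library 4 (117 FPKM). Libraries 1 and 8 thus had the fewest detected genes, the lowest neuronal sums and the highest fat body sums. Their values are named wherever a result rests on them. Not all markers gave this order. The peptide secretion genes summed to 3014 FPKM in library 8, 7097 FPKM in library 3 and 9111 FPKM in library 1. Of the neuronal genes, Snap25 was highest in library 1 (319 FPKM). In picked material of this kind, fewer cells of a type and less RNA per cell cannot be told apart.

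A minority of the factors recurred across libraries. Of the 53 factors, 15 (28.3%) were detected in at least 4 libraries, against 41.2% of all genes by the same rule. By median level these were hth, Lim1, exd, pros, Optix, dac, vvl, ey, onecut, pdm3, Vsx1, svp, ap, zfh1 and toy. All 15 were detected together only in libraries 2 and 6, and library 1 held 6 of them. Only Lim1, exd, hth and pros were detected in all 8 libraries (11.0% of all genes were), and this count of 4 rose to 7 without library 1 and to 10 without libraries 1 and 8. A further 18 factors were detected in 1 to 3 libraries, 4 had values above 0 but never 1 FPKM, and 16 were listed at 0 in all 8 libraries (30.1% of all genes were). The median over the 15 detected factors of their median levels was 19.5 FPKM, and over the 4846 genes detected by the same rule it was 19.7 FPKM.

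**Figure D1:**
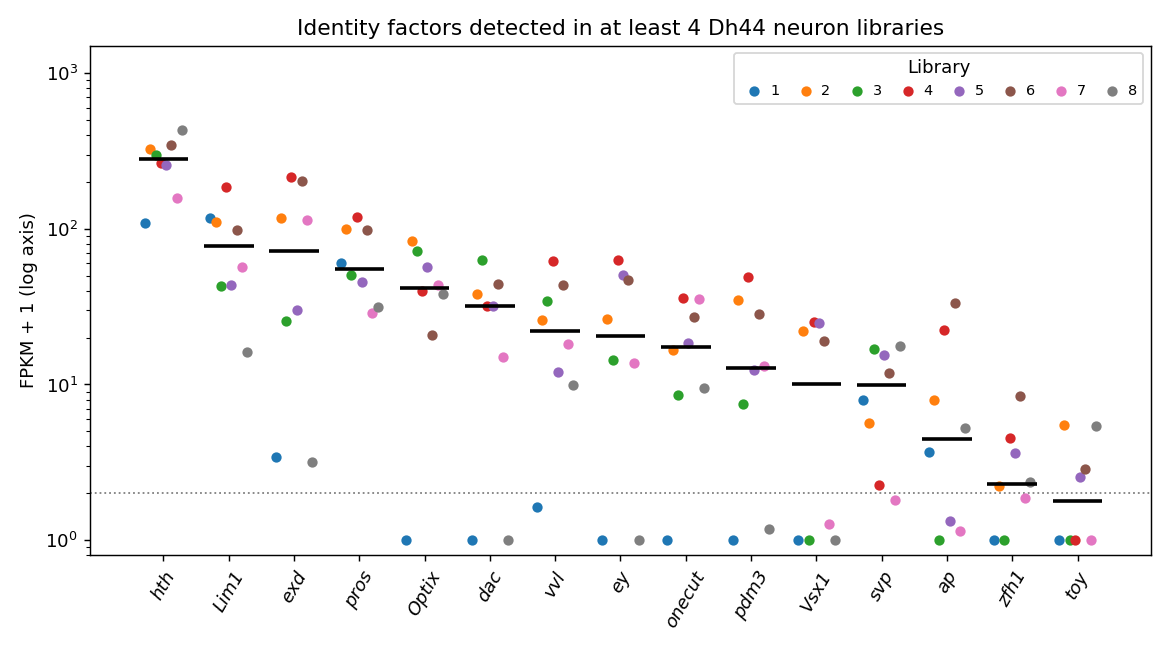
FPKM + 1 on a log axis for the 15 factors detected in at least 4 libraries, 1 point per library (colours, libraries 1 to 8), with the median of the 8 libraries as a black bar and the detection threshold of 1 FPKM as a dotted line. Only hth stays above 100 FPKM in every library, and several other factors have a point on the floor (0 FPKM) that belongs to library 1.

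The highest median level was that of a TALE homeobox gene, hth. hth, the fly Meis homologue that carries its partner Exd into the nucleus, had a median of 281 FPKM, with its lowest value of 109 FPKM in library 1 (443 when the libraries were set to equal upper quartiles) and its highest of 431 FPKM in library 8. It was the highest factor in 7 of the 8 libraries, the exception being library 1, where Lim1 (116 FPKM) was slightly above it. Its median ranked 342 among all genes. Among genes listed above 0 in the same library, hth lay at a median percentile of 92.5. In assembly BDGP6.54 the gene spans chromosome 3R, 10507561 to 10639568, minus strand. Some of its exon sequence is shared with asRNA:CR44018, an antisense RNA gene whose reads cannot be told apart without strand.

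exd, the fly Pbx homologue and a cofactor of Hox proteins, was far less even. The median was 70.7 FPKM, and the highest values were 214 FPKM (library 4) and 203 FPKM (library 6). In libraries 1 and 8 it was at 2.44 and 2.19 FPKM. No library had a value between 29.2 and 112 FPKM, so the median sits in a gap and moves to 29.2 or 112 FPKM when any single library is left out. hth was above exd in all 8 libraries, by 1.23 times in library 4 and by 197 times in library 8. The ratio was 44.6 in library 1, 12.1 in library 3 and 8.81 in library 5, and between 1.40 and 2.80 in libraries 2, 6 and 7. These partners were therefore detected together in every library but not in a fixed proportion.

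**Figure D2:**
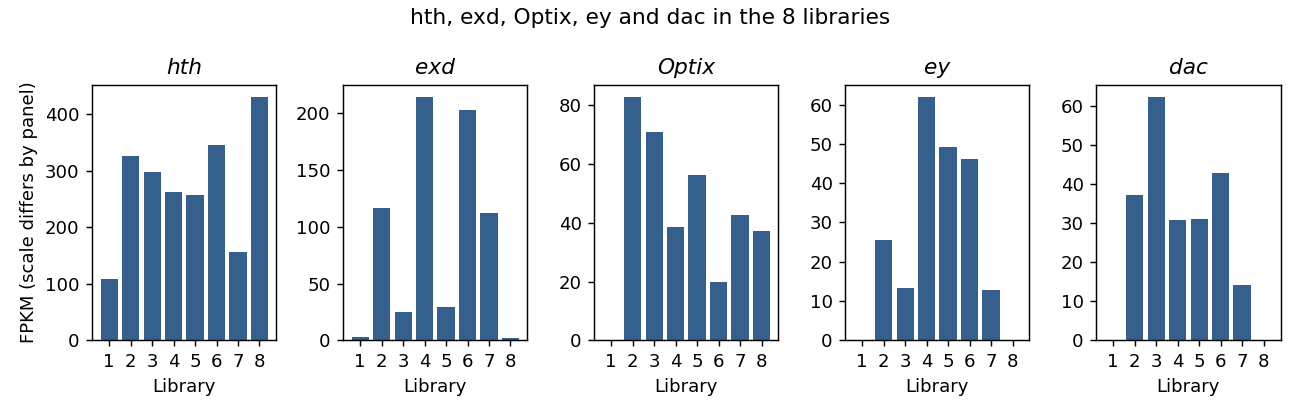
FPKM of hth, exd, Optix, ey and dac in libraries 1 to 8, with a linear axis of its own for each gene. In library 8, hth (431 FPKM) and Optix (37.2 FPKM) are present while ey and dac are at 0 and exd is at 2.19 FPKM.

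The LIM homeobox factor Lim1 was the second gene by median, at 76.6 FPKM, with its lowest value of 15.1 FPKM in library 8 and its highest of 184 FPKM in library 4. LIM homeobox proteins pair a homeodomain with zinc-binding LIM domains and are best known for marking classes of motor neurons and interneurons. Lim1 was above Lim3, a factor of motor neurons, in all 8 libraries, and Lim3 passed 1 FPKM in library 4 only (1.56 FPKM). ap, which acts with the peptidergic factor Dimm in some peptide neurons of the nerve cord, had a median of 3.48 FPKM and was detected in 5 libraries. Its values were uneven: 32.4 FPKM in library 6, 21.4 FPKM in library 4 and a listed 0 in library 3. tup and Awh, the remaining LIM homeobox genes of the list, were listed at 0 throughout.

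pros encodes an atypical homeodomain protein that neuroblasts pass on to their daughters, where it ends division, and some mature neurons keep it. Its median was 54.4 FPKM, with a lowest value of 27.7 FPKM (library 7) and a highest of 118 FPKM (library 4), so that the highest value was 4.28 times the lowest. Only hth, at 3.95 times, had a narrower range on the deposited scale among the factors detected in all 8 libraries. With the libraries set to equal upper quartiles, pros ran more widely, from 20.5 (library 7) to 240 (library 1). The exons of pros overlap the antisense gene lncRNA:CR46008. Markers of dividing neural progenitors were near the floor in the same libraries: of 7 measured, only stg was detected in at least 4 libraries, dpn and ase were listed at 0 throughout, and the 7 genes summed to between 0.612 and 7.98 FPKM per library.

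Genes of the retinal determination network, which also act in the embryonic head, were grouped with other Six and Pax6 factors. Of 7 measured, Optix, dac, ey and toy were detected in at least 4 libraries (41.2% of all genes were). The gene so was listed at 0 in all 8 libraries (30.1% of all genes were). Optix, a homologue of vertebrate Six3 and Six6, had a median of 40.7 FPKM and a highest value of 82.9 FPKM in library 2. It was at 19.9 FPKM or more in 7 libraries and listed at 0 in library 1. Its relatives were all but unseen: so was never above 0, and Six4 was above 0 in library 4 only (7.34 FPKM). eya, the coactivator that partners So in the eye, was detected in library 5 (9.99 FPKM) and library 6 (1.02 FPKM).

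ey, the fly Pax6 gene, and dac, a nuclear factor related to the Ski and Sno proteins, were detected in the same 6 libraries, 2 to 7, and both were listed at 0 in libraries 1 and 8. dac had a median of 30.9 FPKM and was highest in library 3 at 62.3 FPKM. ey had a median of 19.5 FPKM and was highest in library 4 at 62.0 FPKM. Without libraries 1 and 8 the median of ey was 35.9 FPKM and that of dac 34.1 FPKM. Within the 6 libraries each was the higher one in 3, and the ratio of ey to dac ran from 0.215 to 2.01. toy, the second Pax6 gene, which lies upstream of ey in the eye, was much lower. Its median was 0.772 FPKM, and detections came from libraries 2, 5, 6 and 8, with 4.50 FPKM as its highest value and a listed 0 in the other libraries. Its median is between a detected and an undetected library and becomes 0 or 1.54 FPKM when any 1 library is left out. ey exceeded toy in 6 libraries, and toy exceeded ey in library 8. Ilp5, the insulin-like peptide gene on which ey and dac act in the neighbouring insulin-producing cells, was highest in library 3 at 15384 FPKM, the library with the most dac but with only 13.4 FPKM of ey. It was at 21.2 FPKM in library 4, the library with the most ey. Where both factors were listed at 0, Ilp5 was at 102 FPKM (library 1) and 16.8 FPKM (library 8). Its lowest value, 2.95 FPKM, was in library 5, where ey was at 49.3 FPKM and dac at 31.1 FPKM. In libraries 2, 6 and 7 Ilp5 was at 547, 220 and 588 FPKM. The 4 insulin cell genes summed to between 1066 FPKM in library 8 and 32919 FPKM in library 3, with 6338 FPKM as the next highest. Dsk, the remaining one beside Ilp2, Ilp3 and Ilp5, passed 1 FPKM in 2 libraries, and the other three did so in every library. Their part in the levels of ey and dac was not tested.

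Factors of the anterior brain and of the paired homeobox class were mostly low. Of 8 measured, only Vsx1 was detected in at least 4 libraries (41.2% of all genes were). Vsx1, which marks a domain of the optic lobe, lay between 17.9 and 24.2 FPKM in libraries 2, 4, 5 and 6. It was at 0.263 FPKM in library 7 and listed at 0 in libraries 1, 3 and 8. The values thus form a high and a low set with nothing between them, and the median of 9.09 FPKM describes no library. It becomes 0.263 or 17.9 FPKM when any 1 library is left out.

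Of the remaining genes in that group, oc, the fly Otx gene, reached 1.45 FPKM in library 4 and 1.11 FPKM in library 8. ems, another head gap gene, reached 1.29 FPKM in library 6. otp, whose vertebrate homologue acts in hypothalamic neurosecretory cells, was at 6.42 FPKM in library 8 and listed at 0 in the other libraries, and its exons overlap the antisense gene asRNA:CR43160. Rx, hbn, al and Ptx1 were listed at 0 in all 8 libraries. otp, Rx and hbn lie close together on chromosome 2R, and none of the 3 was seen in libraries 1 to 7.

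POU factors pair a POU-specific domain with a homeodomain. Of 5 measured, 2 were detected in at least 4 libraries (41.2% of all genes were). vvl, which acts in the development of neurons, glia and trachea, had a median of 21.1 FPKM and was highest in library 4 at 61.2 FPKM. It was detected in 7 libraries and at 0.635 FPKM in library 1. pdm3, known for axon targeting of olfactory neurons, had a median of 11.7 FPKM and was detected in the 6 libraries 2 to 7. It was highest in library 4 at 47.9 FPKM, at 0.170 FPKM in library 8 and listed at 0 in library 1. acj6, a factor of olfactory neurons, was at 13.5 FPKM in library 6 and passed 1 FPKM only once more, at 1.48 FPKM in library 4. The neighbouring paralogues nub and pdm2 gave 1 detection between them, pdm2 at 6.17 FPKM in library 4, with nub listed at 0 throughout.

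onecut, a broadly neuronal factor with a cut domain and a homeodomain, was detected in 7 libraries. Its median was 16.5 FPKM, it was highest in library 4 at 34.8 FPKM, and it was listed at 0 in library 1. ct, the larger relative that controls dendrite shape in sensory neurons, passed 1 FPKM in libraries 4 (6.04 FPKM) and 8 (7.30 FPKM). onecut was above ct in all 7 libraries in which it was detected.

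svp and zfh1 completed the detected group. svp, the orphan nuclear receptor of the COUP type that acts as a timing switch in neuroblasts, had a median of 8.91 FPKM and was detected in 7 libraries. Its pattern differed from that of most factors above: its highest value of 16.6 FPKM was in library 8, and library 7 had the lowest at 0.822 FPKM. CG44037 shares exon sequence with it on the same strand, which leaves the level of svp uncertain. zfh1, a zinc finger and homeodomain repressor of motor neurons, muscle and blood cell precursors, had a median of 1.30 FPKM and was detected in 5 libraries. It was highest in library 6 at 7.46 FPKM and listed at 0 in libraries 1 and 3. Its paralogue zfh2 passed 1 FPKM in library 4 only (1.12 FPKM).

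The order of the 15 medians was loose. In each of the 14 pairs of neighbours in that order the ranges overlapped. hth exceeded Lim1 in 7 of 8 libraries, with a ratio of medians of 3.67. This was the only neighbouring pair in which the higher gene was higher in more than 6 libraries. In 8 pairs, among them Lim1 and exd, exd and pros, and vvl and ey, the gene with the higher median was higher in 4 of 8 libraries. Apart from the place of hth, the ranking of neighbours is therefore not separable from the spread between libraries. The SD of log2(FPKM + 1) over the libraries had a median of 1.69 over the 15 factors, and of 2.03 over all 4846 detected genes.

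Of the 5 Hox genes measured, which fix segment identity along the body, none was detected in at least 4 libraries, and neither was any of the 8 motor neuron and columnar factors measured (41.2% of all genes were). Antp reached 6.28 FPKM in library 1 and stayed below 1 FPKM elsewhere, and its exons overlap CG46458 on the same strand. abd-A (0.145 FPKM, library 4) and Dfd (0.159 FPKM, library 5) were above 0 once each. Abd-B and lab were listed at 0 in all 8 libraries. Of the motor neuron and columnar factors, exex, eve, vnd, ind, bsh and unpg were listed at 0 throughout. Dr, the Msx homologue, reached 0.609 FPKM in library 7, and Dll, the limb and brain factor, reached 1.51 FPKM in library 8 and just passed 1 FPKM in library 6.

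The Iroquois genes ara, caup and mirr, which lie in a cluster on chromosome 3L, were detected in few libraries. ara was at 14.1 FPKM in library 3 and at 4.94 FPKM in library 2, mirr at 3.90 FPKM in library 1 and caup at 1.60 FPKM in library 4. The Sox genes also differed: SoxN reached 28.3 FPKM in library 8 and was at 1.60 and 1.51 FPKM in libraries 2 and 4, whereas D stayed at or below 0.239 FPKM. tll, the orphan nuclear receptor needed for the embryonic brain, and grn, a GATA factor, were at 34.1 and 22.2 FPKM in library 4. In the other libraries tll was listed at 0, and grn reached at most 0.805 FPKM.

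**Figure D3:**
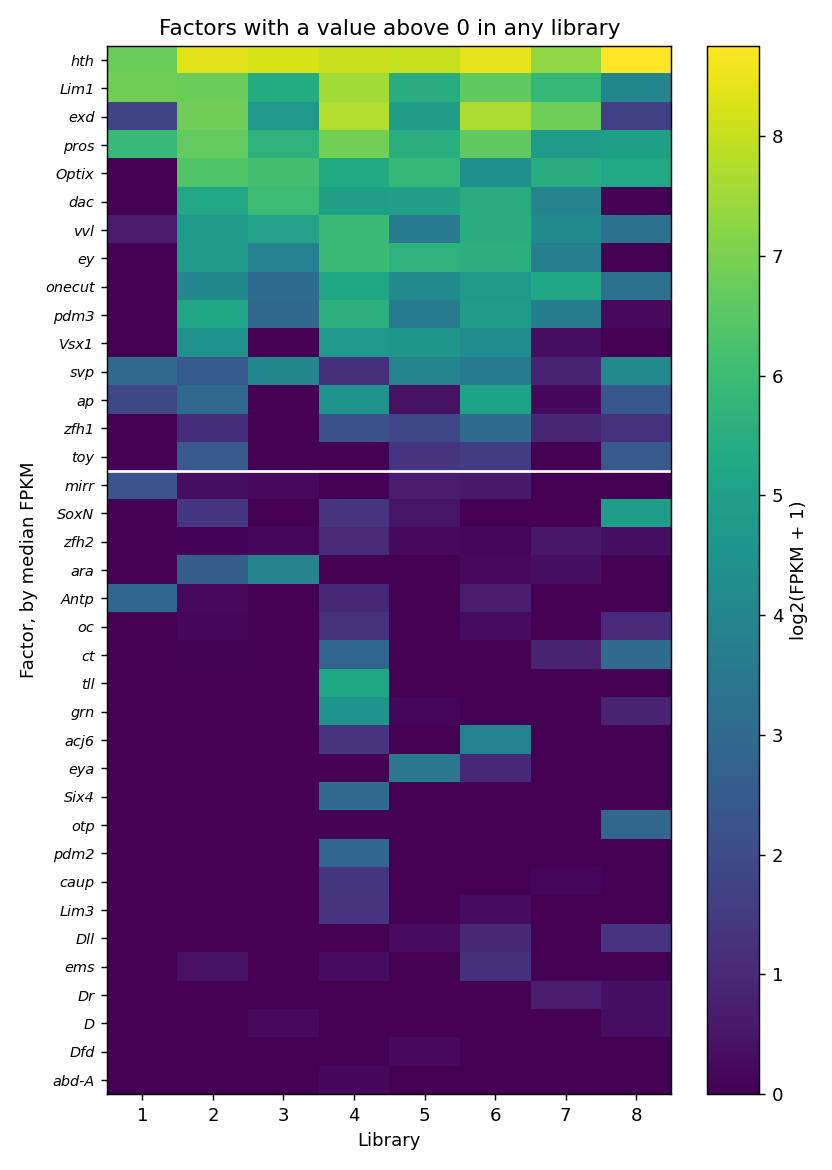
log2(FPKM + 1) of the 37 factors with a value above 0 in any library (rows, by median FPKM) in libraries 1 to 8 (columns). Above the white line are the 15 factors detected in at least 4 libraries, and below it library 4 has the most detections of any library (11 of 26), among them tll, grn, Six4 and pdm2.

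Of 11 factors detected in 1 library only (20.8% of the 53, against 11.6% of all genes), 7 were in library 4: Lim3, Six4, caup, grn, pdm2, tll and zfh2. Library 1 held Antp and mirr, library 6 held ems and library 8 held otp. Without library 4 there were 7 such factors in place of 11. Of the 1366 genes detected in a single library, 416 (30.5%) were likewise in library 4, which also had the most detected genes. Libraries 2 and 7, with 5093 and 5088 detected genes, held none of the 11 factors. Of the 15 recurrent factors, 8 had their highest deposited value in library 4, and the share over all genes was not computed. With the libraries set to equal upper quartiles, only vvl, ey and pdm3 of the 15 were highest there. Lim1 and pros were then highest in library 1 (471 and 240).

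The number of factors detected per library ran from 8 in library 1 and 10 in library 7 to 19 in library 6 and 25 in library 4. Library 7 was low in factors although it had 5088 detected genes, and library 8 held 16 factors with 3798. The summed level of the 53 factors lay between 307 FPKM in library 1 and 1192 FPKM in library 4, or between 0.0378% and 0.128% of the summed FPKM of a library. hth made up 71.0% of the factor sum in library 8 and 22.1% in library 4.

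**Figure D4:**
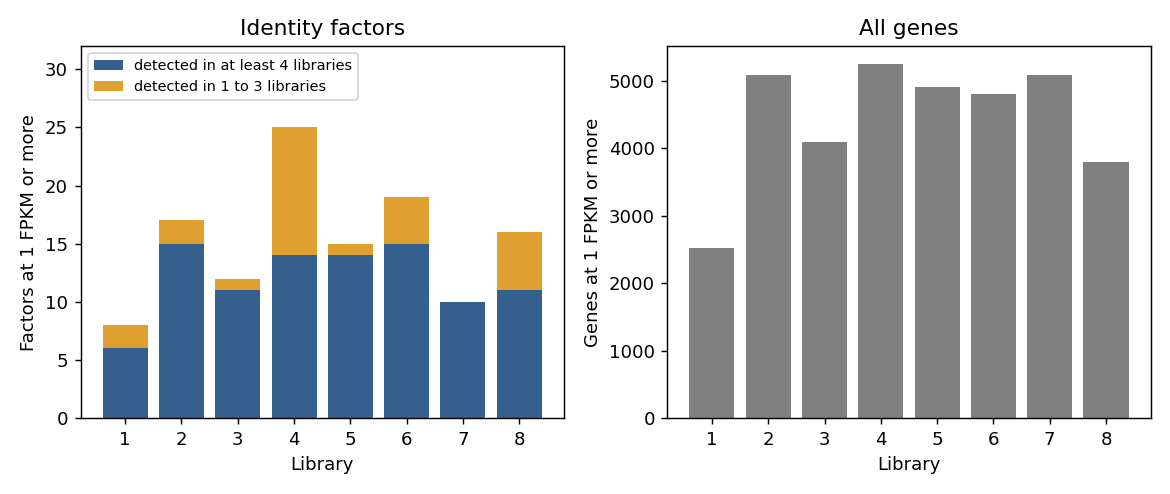
Left, number of the 53 factors at 1 FPKM or more in each library, divided into the 15 detected in at least 4 libraries (blue) and those detected in 1 to 3 libraries (orange); right, number of all genes at 1 FPKM or more in each library. Library 4 has the most of both, and library 7 has 10 factors, all blue, with 5088 genes.

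The factors in libraries 1 and 8 were compared with genes that are equally regular elsewhere. At 1 FPKM or more in all of libraries 2 to 7 were 10 factors, namely ey, dac, Optix, Lim1, onecut, vvl, pdm3, exd, hth and pros, and 2397 (20.4%) of all genes. Of the 10, Lim1, exd, hth and pros were also detected in both library 1 and library 8 (54.2% of the 2397 genes were). In library 1, 5 of the 10 were listed at 0 (ey, dac, Optix, onecut and pdm3; 35.8% of the 2397 genes were), and in library 8, ey and dac were (16.5%). ey and dac were thus at 0 in both, as were 10.1% of the 2397 genes. Among factors not on the list but detected in all of libraries 2 to 7, dimm, unc-4 and sr were also listed at 0 in both. The other such factors were above 0 in library 1, library 8 or both. The share at 0 in both was not computed for these factors. dimm, a peptidergic factor, had a median of 51.3 FPKM. Of 135 measured factors not on the list, 11 were detected in all 8 libraries, among them emc, da, CrebA and lola (11.0% of all genes were). Libraries 1 and 8 also had the lowest neuronal and the highest fat body sums given above. The part of either in the missing factors was not tested.

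The summed level of 15 photoreceptor genes was highest in library 8 at 7995 FPKM and lowest in library 4 at 808 FPKM. The opsin gene Rh5 made up 3995 FPKM of it, and without Rh5 the sum was still highest in library 8, at 4000 FPKM against 2205 FPKM in library 7. Of the 15 genes, 8 had their highest value in library 8 and 7 elsewhere. There norpA was at its lowest (7.99 FPKM), and Rh3, Rh6 and inaD were listed at 0. Pph13, a homeobox factor of photoreceptors that was not on the list, was at 63.5 FPKM there and listed at 0 in the other libraries. Of the listed factors, hth, svp, SoxN, ct, otp, Dll and D had their highest values in the same library, and the share over all genes was not computed. svp was almost as high in library 3 (15.9 FPKM against 16.6 FPKM), and D never reached 1 FPKM. ct was at 7.30 FPKM in library 8 and at 6.04 FPKM in library 4, where the photoreceptor sum was lowest. The part of photoreceptor RNA in these values was not tested. repo, the homeobox factor that defines glia, was at 0 in libraries 1, 3, 5 and 8 and at most at 2.87 FPKM. Of the 9 glial markers, 5 were detected in at least 4 libraries (41.2% of all genes were). Gs2, nrv2 and Eaat1 were detected in all 8, with medians of 56.7, 40.2 and 16.5 FPKM. The 9 glial markers summed to between 52.8 and 346 FPKM.

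Identity factors that were not on the list were counted in the same way. Of 135 further factors measured, 31 (23.0%) were detected in at least 4 libraries, against 41.2% of all genes, and 47 were listed at 0 throughout. Of 50 other homeobox and paired box genes, 4 were detected. unc-4, known from motor neurons and interneurons of the nerve cord, led them at a median of 17.4 FPKM, was detected in libraries 2 to 7 and was listed at 0 in libraries 1 and 8. cad and NK7.1 had medians of 1.99 and 1.16 FPKM. The exons of NK7.1 overlap spn-B on the opposite strand.

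Of 23 bHLH factors, 7 were detected. They were led by emc, a partner that keeps bHLH proteins from binding DNA, at 170 FPKM, followed by dimm (51.3 FPKM), Oli (30.6 FPKM), da (21.9 FPKM), sima (17.8 FPKM) and tai (11.9 FPKM). The proneural genes ac, l(1)sc, ato, amos, cato and ase, which act in precursors, were listed at 0 in all 8 libraries, and sc, of the same group, was above 0 in library 3 only (1.36 FPKM). Of 62 zinc finger, Sox, forkhead, T-box and other factors, 20 were detected. CrebA, which promotes secretory capacity, had a median of 118 FPKM, and lola, a BTB zinc finger gene of axon guidance, 117 FPKM. They were followed by sr (61.2 FPKM), Pdp1 (50.4 FPKM), crol (36.1 FPKM) and Eip93F (28.4 FPKM). The exons of lola, Oli, tai and da overlap those of other genes, so their values are uncertain.

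The detected and undetected factors of the list also differed in a property that the choice of genes did not use. The 15 factors detected in at least 4 libraries had a median exon length of 4784 bp. For the 22 above 0 in at least 1 library but detected in fewer than 4 it was 3959 bp. For the 16 listed at 0 throughout it was 2582 bp. The same order held over all genes with an annotated length, at 2205 bp, 1842 bp and 1114 bp. The exons of 9 of the 53 factors overlap those of another gene, 5 of them among the 15 detected (hth, pros, svp, zfh1 and toy).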

How the data were processed

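RNA of 8 libraries of Dh44 neurons was measured. The authors deposited FPKM values per gene and library. Per the series text in the labels, low-quality reads, adaptors and primers were removed and reads were mapped to the Drosophila genome, and TopHat is named in the submitters' processing notes. The sources used here do not give the version, build, annotation, FPKM program or use of strand. Summed FPKM per library was 812029 to 935440. Depth is unknown: values reach down to 9.13e-317 FPKM, so whole reads were not recovered and no counting interval is given. FPKM depends on what else is in a library.

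Symbols came from the supplied gene name table (11646 of 11773 identifiers), and exon lengths and overlaps from the Ensembl annotation of BDGP6.54, which may differ from the authors' build. Medians, ranges and counts at 1 FPKM were computed with pandas 2.3.3 in Python 3.11.15, and logarithms are log2(FPKM + 1). The functions were tested on simulated data. Where nothing names separate animals, the spread is that between libraries, which may be technical, so no p-value was computed. The factors and lists were chosen with earlier results of these data known. The planned reading of homeodomain residues was not run, because no protein sequences were used here. All 53 factors are accounted for; factors detected in at least 4 libraries are given with lowest, median and highest values, and up to 6 detected factors of each further list are named by median. One further factor that met this rule is not reported here. Alternatives were other thresholds, scalings, averages and libraries left out.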

Additional observations from a re-analysis of the deposited data

Results flagged for a closer look

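For the 37 factors with a value above 0, 16 further factors and 2 library measures, each library at either end of the range was set against its nearest neighbour on log2(FPKM + 1), or on the value itself for the library measures. A library stood apart in 18 of 55, by a gap above Dixon's 95% critical value for its range. Chance gives about 1 in 20 per group under a normal distribution, which is no yardstick for genes listed at 0 in most libraries, since any single value then stands apart.

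Among factors detected in at least 4 libraries, Optix and onecut stood apart, each listed at 0 FPKM in library 1. Library 1 was high for Antp (6.28 FPKM) and mirr (3.90 FPKM). Library 4 was high for tll (34.1 FPKM), grn (22.2 FPKM), Six4 (7.34 FPKM), pdm2 (6.17 FPKM), caup (1.60 FPKM), Lim3 (1.56 FPKM) and abd-A (0.145 FPKM). Library 5 was high for eya (9.99 FPKM) and Dfd (0.159 FPKM), and library 6 for acj6 (13.5 FPKM) and ems (1.29 FPKM). Library 8 was high for SoxN (28.3 FPKM) and otp (6.42 FPKM). Of the further factors, emc, with a median of 170 FPKM, was low in library 8 (2.83 FPKM).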

How the results depend on the processing

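The count of 15 factors detected in at least 4 libraries stayed within 1.5 times of itself under every alternative run: 12 at 5 or 10 FPKM, 21 at 0.1 FPKM, 22 in at least 2 and 11 in at least 6 libraries, and 13 to 15 with 1 library left out. The count detected in all libraries was 4 to 7 with 1 library left out and 10 without libraries 1 and 8. Factors detected in 1 library only numbered 6 at 0.1 FPKM, 5 at 10 FPKM and 7 to 13 with 1 library left out. Further identity factors fell from 31 to 20 at 10 FPKM and were 47 when 2 libraries sufficed. Of the factors with a library apart, 2 remained among those detected in at least 4 libraries, since fewer genes were screened.

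Leaving out libraries 2 to 7 in turn was chosen after seeing the data. Of 210 recomputed medians of the 15 factors, 205 moved by less than 1 SD between libraries, a wide limit, since 50 moved by over 1.5 times. Without libraries 1 and 8 the median of pdm3 was 19.8 FPKM in place of 11.7, and the mean of ap was 8.53 FPKM against a median of 3.48. hth was highest under all 14 settings. Rescaling without short and ribosomal protein genes raised the median gene by 0.57 on the log2 scale, rescaling each library to the same total by 0.15, and equal upper quartiles changed it by -0.29. Equal upper quartiles multiplied library 1 by 4.06, so that hth was 443 there, no longer its lowest; zeros stay 0 under any scaling. No paired analysis was possible because there is 1 group.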
